A study of Mus musculus with 6 samples.

Results

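Aquaporins are the membrane channels through which water, and for some members glycerol, crosses cell membranes. The 8 genes described here, Aqp1, Aqp3, Aqp4, Aqp5, Aqp7, Aqp8, Aqp9 and Aqp11, were taken by symbol from a table of 22180 genes, and each had 1 probe set that carried its symbol alone. Their mRNA was measured in whole lung of 6 mice of the outbred CD1 stock at 10 weeks of age. The 3 intact mice had a sham procedure, and the 3 preconditioned mice had been mechanically ventilated at low pressures for 90 minutes 1 week before the lung was sampled. Both groups otherwise carried no stated allele or agent, and each mouse gave 1 array.

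Each aquaporin forms a pore in the membrane, and water follows osmotic gradients that ion transporters set up. Some members, the aquaglyceroporins, also pass glycerol and other small uncharged molecules. In lung, Aqp1 is known from capillary endothelium and the pleural lining, Aqp5 from the apical membrane of alveolar type 1 cells, Aqp4 from the basolateral membrane of airway epithelium and Aqp3 from basal cells of the large airways. The comparison asks whether the mRNA of these channels differed 1 week after low-pressure ventilation.

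The deposited values are log2 values, so a difference of 1 is a doubling. Array medians lay between 5.32 and 5.40, and arrays correlated at 0.978 to 0.993 across genes. Intact replicate 1 lay between the other arrays on the first principal component, at -0.51 against -26.5 and -28.4 in the other intact and 12.3 to 25.8 in the preconditioned mice. Lung cell markers were high on every array, with the surfactant protein gene Sftpc at 13.0 to 13.4 and the club cell gene Scgb1a1 at 13.5 to 13.6. The files hold no detection call. As a guide to the level of silent genes, the 1105 olfactory receptor genes had a 95th percentile of 5.07, and the means of Aqp1, Aqp4, Aqp5, Aqp9 and Aqp11 over the 6 arrays lay above it, while those of Aqp3, Aqp7 and Aqp8 lay below. A value also depends on the probes of its probe set, so levels are not ranked between genes.

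None of the 8 aquaporin genes reached an adjusted p under 0.05 with limma, a linear model with a shared estimate of the spread, against 0.0947% of all genes. At an unadjusted p under 0.05 there was 1, Aqp1, against 19.1% of all genes, and Aqp1 was also the only member whose groups did not overlap, against 24.7% of all genes. None of these shares of the 8 exceeds its background. Differences (preconditioned minus intact) were below 0 for 4 members (47.3% of all genes) and above 0 for 4, with a median of 0.02 (0.01 over all genes) and a range from -0.84 for Aqp1 to 0.42 for Aqp3. The median difference depended on level, at -0.09 among genes above the median level and 0.05 among olfactory receptor genes. The 3 arrays per group limit what could be detected.

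**Figure D1:**
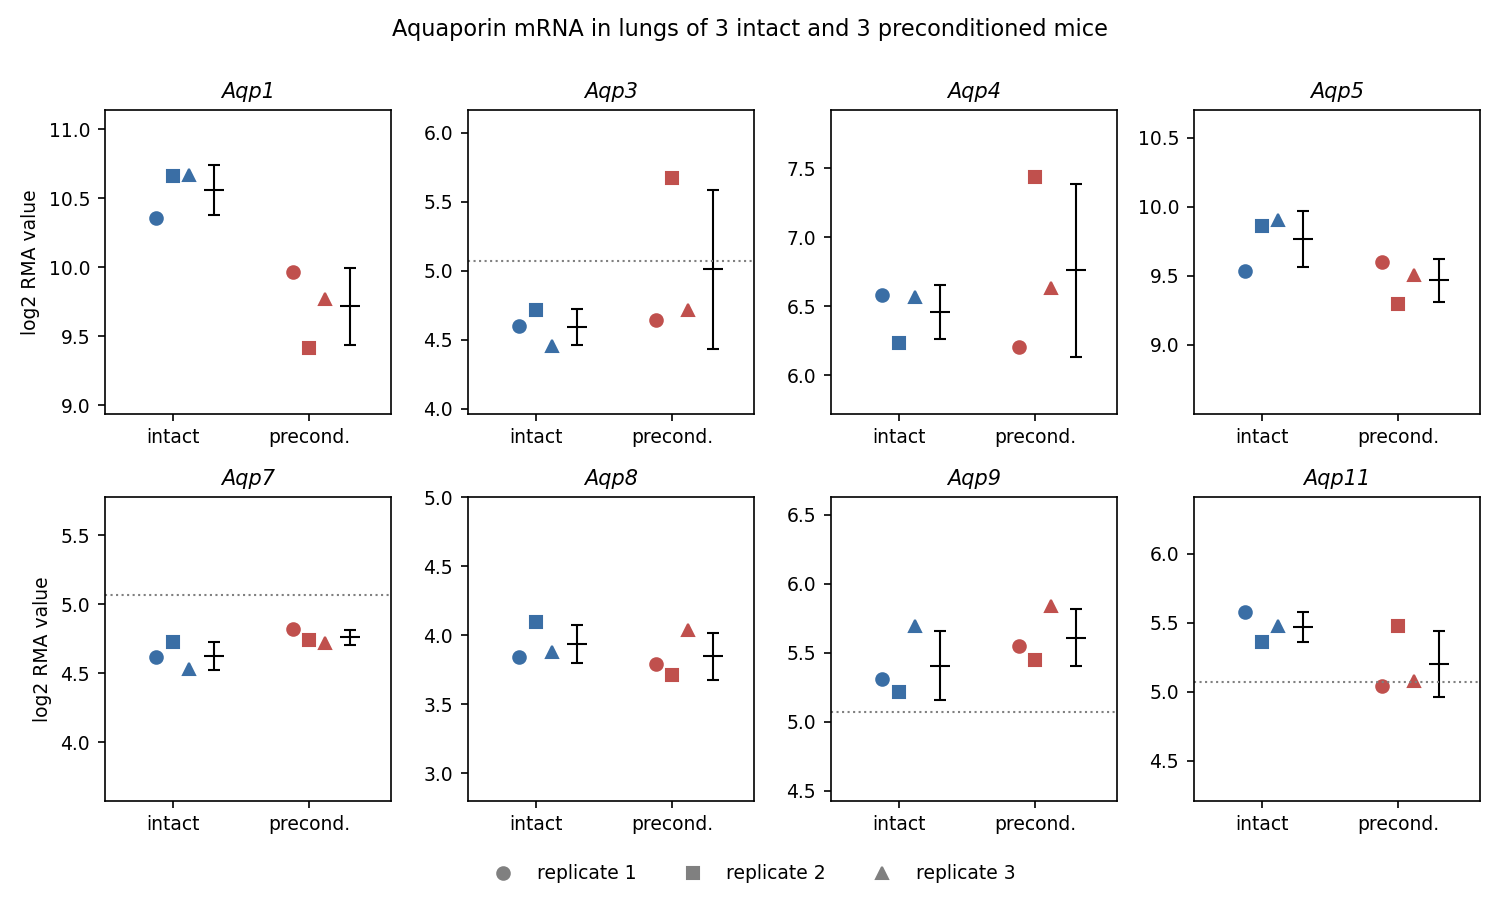
Log2 RMA value of each aquaporin gene in every mouse, 3 intact (blue) and 3 preconditioned (red), with the group mean and SD as black bars; all panels span the same 2.2 log2 units, and the dotted line is the 95th percentile of olfactory receptor genes, 5.07. Only for Aqp1 do all preconditioned mice lie below all intact mice, and preconditioned replicate 2 stands apart for Aqp3 and Aqp4.

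Aqp1 is a pure water channel of endothelium, mesothelium and red cells. Its log2 values were 10.36, 10.66 and 10.67 for intact mice 1 to 3 and 9.97, 9.41 and 9.77 for preconditioned mice 1 to 3 (the labels' replicate numbers). Every preconditioned mouse was below every intact mouse, and the lowest value was that of preconditioned replicate 2. The means were 10.56 ± 0.18 and 9.72 ± 0.28 (SD, n = 3), a log2 difference of -0.84 (SE 0.16, 95% interval -1.21 to -0.48), which is a 1.80-fold lower level (limma, adjusted p = 0.0805). The difference did not pass over all genes, although only 0.775% of genes had a more negative one. That share counts genes near the silent level, since 14267 of the 22180 genes had a mean above the olfactory receptor guide. Without intact replicate 1 the Aqp1 difference did pass, at -0.95 (limma, adjusted p = 0.0274, where 5.54% of all genes passed). With array weights it passed too (-0.86, adjusted p = 0.0275, where 1125 of 22180 genes passed). Over all 16 other settings its adjusted p ranged from 0.0274 to 0.299.

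Aqp5 is the apical water channel of alveolar type 1 cells and of secretory glands. Its log2 values were 9.53, 9.86 and 9.91 for intact mice 1 to 3 and, in the same order, 9.60, 9.29 and 9.51 for preconditioned mice. Intact replicate 1 lay within the range of the preconditioned mice, so the groups overlapped. The means were 9.77 ± 0.20 and 9.47 ± 0.16 (SD, n = 3), a log2 difference of -0.30 (SE 0.13, 95% interval -0.60 to 0.0013) that did not pass (limma, adjusted p = 0.264). After a further quantile normalization it was -0.12 and after cyclic loess -0.13, so its size depends on the scaling.

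Aqp1 and Aqp5 deviated together from mouse to mouse, with r = 0.92 over the 6 arrays and 0.94 after each group's mean was removed, given as a description without a test. This is not particular to the pair: after the same step Aqp4 and Aqp11 had r = 0.95, and Aqp1 and Aqp11 had r = -0.92. The promoters of Aqp1 and Aqp5 are shown because these members ran together and lie above every olfactory receptor gene. Shared regulation was not tested. Both are the 250 bases before the RefSeq start site on GRCm38.p6, plus strand, 5′ to 3′, Aqp1 at chr6:55336049-55336298 and Aqp5 at chr15:99590778-99591027, with matches on either strand to 6 short motifs in capitals.
Aqp1: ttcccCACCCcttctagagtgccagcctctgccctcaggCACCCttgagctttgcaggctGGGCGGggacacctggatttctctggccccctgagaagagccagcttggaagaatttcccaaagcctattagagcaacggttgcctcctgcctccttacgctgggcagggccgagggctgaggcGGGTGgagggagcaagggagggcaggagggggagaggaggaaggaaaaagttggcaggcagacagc
Aqp5: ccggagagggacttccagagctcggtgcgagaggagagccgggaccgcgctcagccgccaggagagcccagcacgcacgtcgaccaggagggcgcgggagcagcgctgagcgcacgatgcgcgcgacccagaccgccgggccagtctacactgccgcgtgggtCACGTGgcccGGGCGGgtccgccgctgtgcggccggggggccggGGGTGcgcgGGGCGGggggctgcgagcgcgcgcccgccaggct
The motifs searched were the TATA box TATAAA, the GC box GGGCGG, the CACCC box CACCC, the E-box CACGTG, the glucocorticoid receptor half-site AGAACA and the NFAT5 core TGGAAA, and no matches of different motifs overlapped. The Aqp1 window held 1 GC box, which starts 190 bases before the start site, and 3 CACCC boxes. The Aqp5 window held 2 GC boxes, 1 CACCC box and 1 E-box, which starts 87 bases before the start site. Of all 32851 windows of this length, 32.7% held a GC box, 52.0% a CACCC box and 6.02% the E-box. The TATA box (12.4% of windows), the half-site (16.1%) and the NFAT5 core (18.6%) were not found in either. The share of G and C was 62% for Aqp1 and 78.4% for Aqp5, against a median of 52.4%. These matches describe letters, not binding.

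The change of Aqp1 was set against that of Aqp5 within each mouse. Within each array the log2 ratio of Aqp1 to Aqp5 signal, of which only the change is read, was 0.82, 0.80 and 0.76 for intact mice 1 to 3 and, in the same order, 0.37, 0.12 and 0.26 for preconditioned mice. The groups did not overlap, and the ratio was lower by 0.54 in preconditioned mice (means 0.79 ± 0.03 and 0.25 ± 0.12, SD, n = 3; two-sided exact permutation p = 0.1, the smallest that 3 against 3 can give). Over the 10 pairs of the 5 members above the olfactory receptor guide, 5 reached this smallest p, which is 0.2 after Benjamini-Hochberg adjustment. They were Aqp1 with Aqp4, Aqp5 and Aqp9, Aqp4 with Aqp11, and Aqp5 with Aqp9. With 3 against 3 this test could not bring any pair under 0.05, whatever the values. Under the 16 other settings the change of Aqp1 less that of Aqp5 lay between -0.60 and -0.48. Some settings cannot alter it, such as those that change only the variance estimate, the genes tested or a shift per array. It was -0.55 after a further quantile normalization, -0.54 after cyclic loess and -0.52 with array weights. The ends of the range came from leaving out preconditioned replicates 1 and 2.

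Cell markers moved with Aqp1, and in whole lung fewer cells of a type and less RNA per cell cannot be told apart. Mesothelial markers, of the pleural lining, had a median log2 difference of -1.02. All 10 were below 0, 0 passed over all genes and 8 did not overlap between the groups (13.0% of all genes were lower without overlap), with Gpm6a at -1.35 and the uroplakin gene Upk3b at -1.56. Their summed linear signal ranged from 2896 to 4158 in intact and from 1291 to 2259 in preconditioned mice. Their mean deviation from the average of the 6 arrays was 0.14, 0.59 and 0.70 for intact mice 1 to 3 and -0.12, -0.46 and -0.84 for preconditioned mice 1 to 3, and that of Aqp1 was 0.22, 0.52 and 0.53 and -0.17, -0.73 and -0.37. Aqp1 minus the mesothelial mean differed by 0.10 between the groups, which overlapped, and ran from -0.26 to 0.47 over the mice. The overlap is not particular to mesothelium. Groups also overlapped for Aqp1 minus the means of red cell (-0.33), neutrophil (0.27) and adipocyte markers (-0.63). The same held for heart muscle (-0.35) and smooth muscle and pericyte markers (-0.74).

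Blood vessel endothelial markers had a median log2 difference of -0.24 over 13 genes, 11 of them below 0, and none passed over all genes. The TGF-beta coreceptor gene Eng was at -0.80 and the transcription factor gene Sox18 at -0.70, while Egfl7, an endothelial secreted factor gene, was higher without overlap at 0.41 and the receptor genes Kdr and Tie1 were at -0.0090 and 0.01. Their summed linear signal ranged from 17105 to 18884 in intact and from 11890 to 16438 in preconditioned mice. Aqp1 minus the endothelial mean was 0.16, 0.31 and 0.40 for intact mice 1 to 3 against -0.23, -0.36 and -0.28 for preconditioned mice 1 to 3, so Aqp1 was lower relative to these markers in all 3 preconditioned mice. Red cell genes, of which 5 of 9 had a probe set with their symbol alone and the globin genes did not, had a median of -0.67 with 4 below 0, 1 above and none past the threshold, with Slc4a1 at -0.67 and Bpgm at -0.57, and summed linear signals of 1218 to 1615 in intact and 689 to 1153 in preconditioned mice. The part of these cell types in the Aqp1 difference was not tested.

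Aqp5 lay close to the means of both alveolar epithelial marker lists in each mouse. The 12 type 1 cell markers, among them Ager, Pdpn and Cav1, had a median log2 difference of -0.33 with 9 below 0 and none past the threshold, with Cyp4b1 at -0.50 and Cav1 at -0.49. Their summed linear signal ranged from 18114 to 24767 in intact and from 14333 to 18881 in preconditioned mice. Their mean deviation was -0.09, 0.28 and 0.26 for intact mice 1 to 3 and -0.0048, -0.39 and -0.05 for preconditioned mice 1 to 3. Aqp5 minus this mean lay between -0.06 and 0.07 on all 6 arrays, and its difference between the groups was -0.0047. The 10 type 2 cell markers, the surfactant-making cells, had a median log2 difference of -0.28 with 8 below 0 and none past the threshold, with Sftpb at -0.49 and Lamp3 at -0.91, and summed linear signals of 26249 to 35093 in intact and 23181 to 27876 in preconditioned mice. Aqp5 minus the type 2 mean lay between -0.07 and 0.10, with a difference between the groups of 0.0052, so the closeness is not particular to type 1 cells. Minus the endothelial mean that difference was -0.04. Relative to the type 1 mean Aqp1 was lower by 0.55 in preconditioned mice, with no overlap. The part of cell number in the Aqp5 values was not tested.

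**Figure D2:**
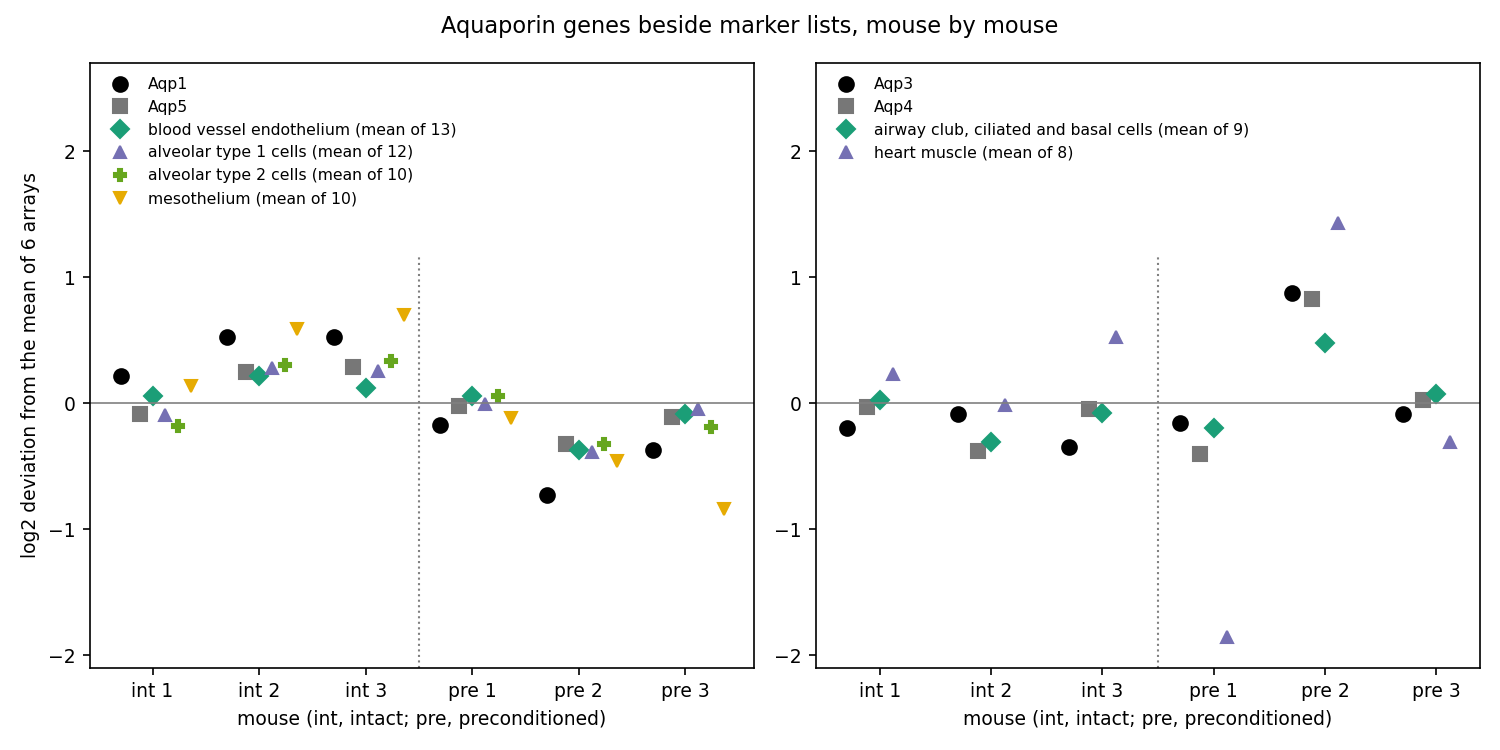
Log2 deviation from the mean of the 6 arrays, mouse by mouse, for Aqp1 and Aqp5 beside the means of endothelial, alveolar type 1, alveolar type 2 and mesothelial markers (left) and for Aqp3 and Aqp4 beside airway and heart muscle markers (right). Aqp5 lies within 0.07 of the alveolar type 1 mean and within 0.10 of the type 2 mean, Aqp1 spreads further, and Aqp3 and Aqp4 are highest in preconditioned replicate 2, where the airway and heart muscle means also peak.

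Aqp4 is the water channel of the basolateral side of airway cells and of glia. Its log2 values were 6.58, 6.24 and 6.57 for intact mice 1 to 3 and, in the same order, 6.21, 7.44 and 6.64 for preconditioned mice. Preconditioned replicate 2 was the highest of the 6 mice and preconditioned replicate 1 the lowest, so the intact values lay within the preconditioned range. The log2 difference was 0.30 (SE 0.28, 95% interval -0.34 to 0.94; limma, adjusted p = 0.587), and it was -0.04 without preconditioned replicate 2, 0.19 without intact replicate 2 and 0.58 without preconditioned replicate 1. That interval covers both a lower and a nearly doubled level.

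Aqp3 is an aquaglyceroporin of basal epithelial cells. Its log2 values were 4.60, 4.71 and 4.45 for intact mice 1 to 3 and, in the same order, 4.64, 5.67 and 4.72 for preconditioned mice. Preconditioned replicate 2 again stood above the rest, and it alone exceeded the olfactory receptor guide of 5.07. The log2 difference was 0.42 (SE 0.25, 95% interval -0.16 to 1.00; limma, adjusted p = 0.395), and 0.09 without preconditioned replicate 2.

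In preconditioned replicate 2 the mean of the airway markers and that of the heart muscle markers were also at their highest, with 5 of 9 airway and 8 of 8 heart muscle markers at their highest in that mouse. The mean deviation of 9 airway markers was 0.03, -0.31 and -0.08 for intact mice 1 to 3 and -0.20, 0.48 and 0.08 for preconditioned mice 1 to 3, and Aqp4 minus this mean lay between -0.21 and 0.35. The keratin genes of basal cells Krt15 and Krt14 had log2 differences of 0.63 and 0.48, with Krt15 at 5.16 in preconditioned replicate 2 and 3.535 to 4.124 elsewhere, while Krt14 was not highest in that mouse. Their means, 4.12 and 4.57, lay below the olfactory receptor guide. Krt15 exceeded it only in preconditioned replicate 2 and Krt14 in no mouse, so both are near the level of silent genes. Besides Krt15, the airway markers highest in preconditioned replicate 2 were Scgb3a2 (11.84), Dnah5 (8.81), Foxj1 (8.68) and Tekt1 (7.36). Their log2 differences were 0.34, 0.40, 0.20 and 0.08. Scgb1a1 and Cyp2f2, at -0.06 and -0.15, were highest in intact replicate 3, and Trp63, like Krt14, in preconditioned replicate 1. The airway markers' summed linear signal was 22533 to 23880 in intact and 20270 to 24987 in preconditioned mice. The 8 heart muscle markers had summed linear signals of 3370 to 4890 in intact mice and of 907, 7827 and 2568 for preconditioned mice 1 to 3, and the atrial peptide gene Nppa was at 8.85 in preconditioned replicate 2 against 5.54 to 6.54 elsewhere, with log2 differences of 0.97 for Nppa and -1.36 for the atrial myosin gene Myl7. None of the 17 markers passed over all genes, and their part in the Aqp3 and Aqp4 values was not tested.

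Aqp9 is an aquaglyceroporin known from liver and from neutrophils. Its log2 values were 5.31, 5.22 and 5.69 for intact mice 1 to 3 and, in the same order, 5.55, 5.45 and 5.84 for preconditioned mice. The groups overlapped, and replicate 3 was the highest mouse of each group. The log2 difference was 0.20 (SE 0.15, 95% interval -0.15 to 0.56; limma, adjusted p = 0.498). It was 0.09 without preconditioned replicate 3, 0.11 without intact replicate 2 and 0.35 without intact replicate 3. Neutrophil markers had differences below 0 in all 10 genes, a median of -1.17 and summed linear signals of 803 to 2699 in intact and 551 to 639 in preconditioned mice, the receptor gene Csf3r at -1.47 and Il1b at -1.60. All 10 were highest in intact replicate 3, and their mean deviation was -0.21, 0.36 and 1.52 for intact mice 1 to 3. None of them passed over all genes, and their part in the Aqp9 values was not tested.

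Aqp11 is an intracellular aquaporin of the endoplasmic reticulum, distant in sequence from the classical members. Its log2 values were 5.58, 5.36 and 5.47 for intact mice 1 to 3 and, in the same order, 5.04, 5.48 and 5.08 for preconditioned mice. Preconditioned replicates 1 and 3 lay below all intact mice, but preconditioned replicate 2 did not. The log2 difference was -0.27 (SE 0.13, 95% interval -0.58 to 0.04; limma, adjusted p = 0.314), and -0.41 without preconditioned replicate 2 (from -0.32 to -0.19 without each other array).

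Aqp7 and Aqp8 stayed below the olfactory receptor guide in every mouse. Aqp7, the glycerol channel of fat cells, was at 4.53 to 4.73 in intact and 4.72 to 4.82 in preconditioned mice, with a log2 difference of 0.14 (SE 0.09, 95% interval -0.08 to 0.35; limma, adjusted p = 0.453). Adipocyte markers, which mark the fat cells that a lung sample can hold, had a median of -0.18 over 9 measured genes, 6 below 0 and 3 above with none past the threshold, with the resistin gene Retn at -0.47, and the adipokine gene Adipoq was at 4.03 to 4.72 over the 6 mice. Aqp8, a water channel of digestive glands that also passes hydrogen peroxide, was at 3.84 to 4.09 in intact and 3.71 to 4.04 in preconditioned mice (log2 difference -0.09, SE 0.12, 95% interval -0.37 to 0.18; limma, adjusted p = 0.711). Values this near the level of silent genes say little about a difference in mRNA.

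The other genes of the family, known from lens, kidney and pancreas, all had differences above 0. Aqp12, of pancreatic acinar cells, was at 5.001, 4.603 and 4.571 for intact mice 1 to 3 and 5.13, 5.21 and 5.14 for preconditioned mice 1 to 3, without overlap (log2 difference 0.44, SE 0.13; limma, adjusted p = 0.136). The vasopressin-regulated kidney channel Aqp2 was at 0.35 (95% interval 0.03 to 0.67; adjusted p = 0.228), the lens channel Mip at 0.39 (adjusted p = 0.289) and the vesicle channel Aqp6 at 0.20 (adjusted p = 0.371). The means of Aqp12 and Aqp6 lay below the olfactory receptor guide of 5.07, so these values are near the level of silent genes. Olfactory receptor genes had a median difference of 0.05. None of the 4 passed over all genes, and without intact replicate 1, where 5.54% of all genes passed, Aqp12 alone did (adjusted p = 0.0232). On RefSeq's GRCm38.p6 the start sites of Aqp2 and Aqp6 lie 11972 and 10172 bases from that of Aqp5 on chromosome 15, and those of Aqp3 and Aqp7 lie 50047 bases apart on chromosome 4. Neighbours did not share a sign in the first cluster, where Aqp5 was at -0.30 and Aqp2 and Aqp6 above 0, although none of these passed.

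**Figure D3:**
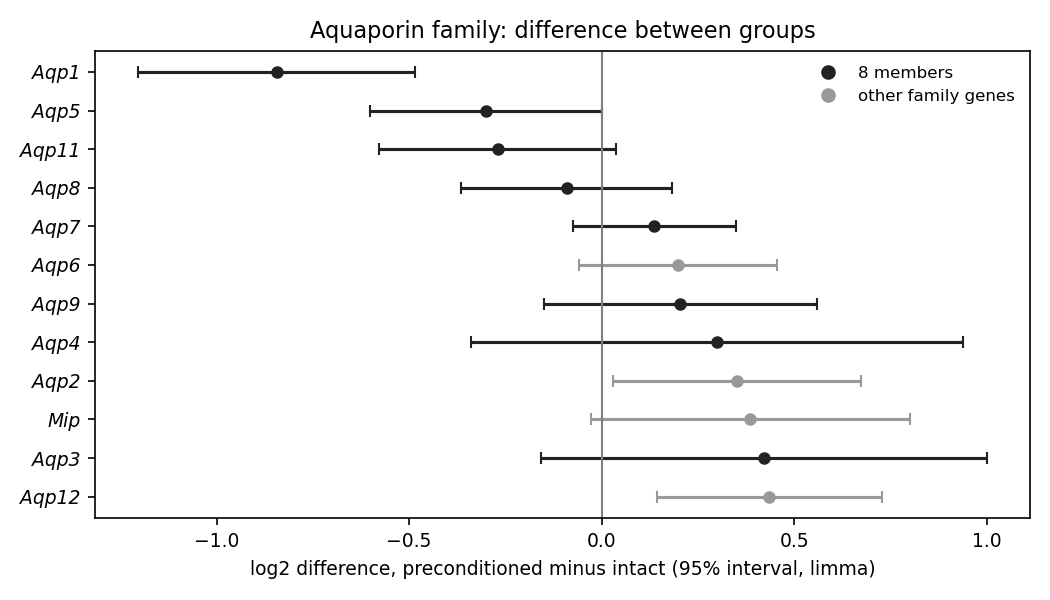
Log2 difference between preconditioned and intact lungs, with its 95% limma interval, for the 8 aquaporin genes (black) and the other 4 family genes (grey). Only the interval of Aqp1 lies wholly below 0, those of Aqp2 and Aqp12 lie wholly above it, and none of the 12 passed after adjustment over all genes.

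The ion transporters and channels that set the gradient for water had mostly lower values in preconditioned mice, as had the alveolar type 1 and type 2 markers (medians of -0.33 and -0.28), whose part was not tested. Of 27 listed genes 21 had a probe set with their symbol alone, 17 of them had a difference below 0 and none passed over all genes (limma; at an unadjusted p under 0.05, 10 were lower, against 11.6% of all genes, and 1 was higher, against 7.53%). A fit of only the genes above the median level held all 21. There 9 of them had an unadjusted p under 0.05, against 2712 of 11090 genes, whose median difference was -0.09. The median difference of the 21 was -0.26, and -0.18 after a further quantile normalization. The groups did not overlap for 10 lower genes and 1 higher gene, against 13.0% and 11.7% of all genes. The beta subunit of the epithelial sodium channel, Scnn1b, was at 9.54, 9.82 and 9.87 for intact mice 1 to 3 and 8.801, 8.997 and 9.050 for preconditioned mice 1 to 3 (log2 difference -0.79, SE 0.12, adjusted p = 0.0556).

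Fxyd5, a regulatory subunit of the sodium pump, had 8.40, 8.19 and 8.38 for intact mice 1 to 3 and 7.69, 7.40 and 7.62 for preconditioned mice 1 to 3, a log2 difference of -0.76 (adjusted p = 0.0556). The gamma subunit of the sodium channel, Scnn1g, was at -0.97 (adjusted p = 0.0805). In all 3 genes every preconditioned mouse was below every intact one. Scnn1b and Fxyd5 passed when only genes above the median level were tested, where 76 of 11090 genes did. Without intact replicate 1, 5 genes of the list passed, where 5.54% of all genes did. The calcium-activated potassium channel gene Kcnn4 was the measured member with a higher value and no overlap, at 0.37.

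**Figure D4:**
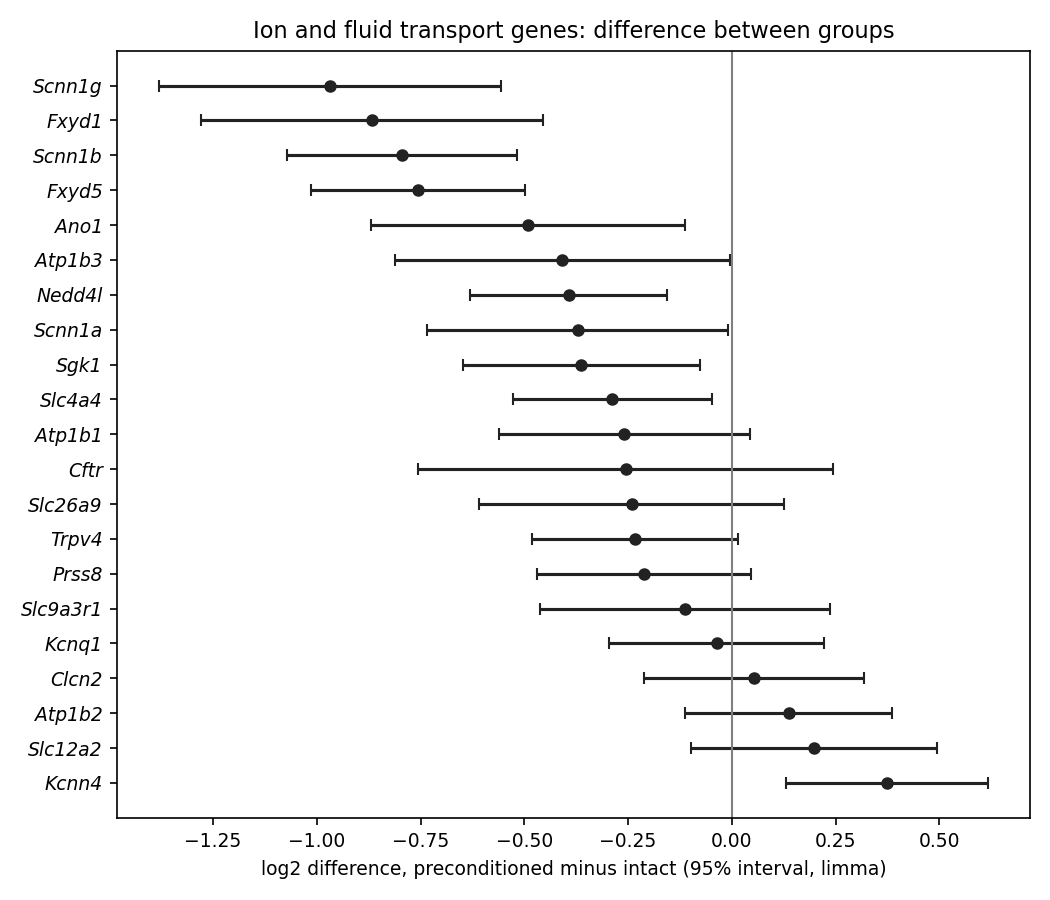
Log2 difference between preconditioned and intact lungs, with its 95% limma interval, for the 21 measured ion and fluid transport genes. Scnn1g, Fxyd1, Scnn1b and Fxyd5 lie farthest below 0 and Kcnn4 farthest above, and none passed after adjustment over all genes.

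Genes of osmotic stress and cell volume had a smaller median difference than the transport list. Of 15 measured of 17 listed, 11 were below 0 with a median of -0.16, none passed over all genes, and 6 had an unadjusted p under 0.05, 4 lower (11.6% of all genes) and 2 higher (7.53%). The groups did not overlap for 8 lower genes and 2 higher genes, against 13.0% and 11.7% of all genes. Sgk1 and Trpv4, both lower without overlap, are in the transport list too. Slc6a6, the transporter of the osmolyte taurine, was at 0.32 (adjusted p = 0.133), the kinase gene Wnk4 at 0.33 (adjusted p = 0.133) and its target kinase gene Stk39 at -0.32 (adjusted p = 0.177). Nfat5, the transcription factor of the response to hypertonicity, was at -0.11 (limma, adjusted p = 0.600).

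Glycerol and lipid storage genes act beside the aquaglyceroporins Aqp3, Aqp7 and Aqp9. Of 11 measured of 12 listed, none passed over all genes and 3 had an unadjusted p under 0.05, all lower (11.6% of all genes), with a median difference of -0.10 that was 0.0086 after a further quantile normalization. They were the lipase genes Lipe (-0.38) and Pnpla2 (-0.64) and the acyltransferase gene Agpat2 (-0.65), with adjusted p from 0.0949 to 0.115 in limma. All 3 lay lower without overlap between the groups (13.0% of all genes), and without intact replicate 1 the last 2 passed, where 5.54% of all genes did.

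The genes whose values ran most like each member over the 6 arrays were found among 10956 genes above the olfactory receptor guide that varied by an SD of at least 0.1. They are a description, since any 2 genes on these arrays share the same mice and the difference between the groups. Nearest to Aqp1 were Lipg, which encodes endothelial lipase, Dync1li1, a dynein chain, and Myadm, with r from 0.998 to 0.999. Nearest to Aqp4 were Tctn2, of the base of the cilium, Dnaic2, of the outer dynein arm, and the kinesin gene Kif21a, with r from 0.994 to 0.995.

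Nearest to Aqp5 were the ubiquitin ligase gene Cop1, Tnfaip1 and the sorting nexin gene Snx18, with r from 0.997 to 0.999. For Aqp9 they were Prickle1, the scramblase gene Plscr1 and Arhgap25, with r from 0.964 to 0.968. For Aqp11 they were the chaperone partner genes Fkbp4 and Dnaja4 and the interferon-induced Usp18, with r from 0.973 to 0.987. None of these 15 genes passed over all genes in limma (lowest adjusted p = 0.0860, for Lipg). Among the members themselves Aqp3 and Aqp4 had r = 0.86, and Aqp1 had r = -0.76 with Aqp3 and -0.68 with Aqp4, all of which rest in part on preconditioned replicate 2.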

How the data were processed

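Lung RNA of 6 mice was hybridised to 1-colour arrays. The authors deposited log2 values made with RMA, per the submitters' processing notes, which also name limma. RMA removes background, gives all arrays a common distribution and combines the probes of each set, which hides any shift common to most genes. For versions and filters, the sources used here state nothing.

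Of 41345 probe sets, 23521 had 1 gene symbol in the platform annotation, and the one with the highest mean per gene gave 22180 genes. Limma (lmFit and eBayes) was fitted to all of them, preconditioned minus intact, without covariate or filter, with Benjamini-Hochberg adjustment and a threshold of 0.05. The members and gene lists were chosen with earlier results of these data known. Of each pathway list the 3 genes, and of each described marker list 2 genes, with the largest moderated t were named. Other genes were named after their values were seen: Scgb1a1, Sftpc, Nfat5, Kcnn4, Fxyd1, Egfl7, Kdr, Tie1, Ager, Pdpn, Sgk1, Trpv4, Scgb3a2, Dnah5, Foxj1, Tekt1, Cyp2f2 and Trp63. Summed linear signals are sums of 2 to the power of the log2 value. Promoters came from RefSeq for 7 of 8 members, and Aqp4 was left out by a filter on chromosome. R 4.3.3, limma 3.58.1, python 3.11.15 and matplotlib 3.10.9 were used.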

Additional observations from a re-analysis of the deposited data

How the results depend on the processing

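Of the 8 aquaporin genes, 1 (Aqp1) passed with array weights, at an adjusted p under 0.1 and without intact replicate 1, and 0 to 1 passed when each array was left out in turn. Over all genes, against 21, there were 76 among genes above the median level, 33 after median centring, 55 with an intensity trend and robust prior, 1125 with array weights, 642 at an adjusted p under 0.1 and 2 to 1228 with an array left out. With array weights 1 other family gene, 5 ion and fluid transport genes and 3 glycerol and lipid storage genes passed. At an adjusted p under 0.1 the transport list had 4 and the glycerol list 2, and among genes above the median level the transport list had 2, and 1 with an intensity trend and robust prior. Leaving out an array gave 0 to 1 for the other family genes, 0 to 5 for the transport list and 0 to 2 for the glycerol list. No setting called a gene of the osmotic stress list. The causes were not tested.

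With the replicate number as a block 4 of all genes passed and 0 aquaporin genes. The labels do not say whether the numbers pair the mice. Deviations of same-numbered arrays correlated at -0.06, -0.31 and -0.06, and those of differently numbered arrays at -0.16 to 0.24. Deviations from the means of only 3 arrays cannot settle whether the mice were paired. Aqp1 lay between -0.97 and -0.66 over its 16 alternatives (limma, adjusted p from 0.0274 to 0.299). Alternatives that change only the variance estimate or the genes tested cannot alter a member's difference. Aqp4 changed sign without preconditioned replicate 2, and the other 7 members kept theirs in every setting that tested them. Genes above the olfactory receptor guide were tested as an alternative chosen after seeing the data, with 0 aquaporin genes called. The number of arrays limits the precision, and signal near the level of silent genes limits Aqp3, Aqp7 and Aqp8.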
